A study of Mus musculus with 8 samples.

Results

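Follicular helper T cells (Tfh cells) were compared with activated CD4 T cells that lacked the Tfh surface phenotype (non-Tfh cells), both carrying an empty control vector. The comparison used the 4 libraries labelled as Tfh or non-Tfh with empty vector, 2 of each, out of 8 in the series. The other 4 libraries, the same cell types carrying a Bach2 vector, shared the statistical fit and its estimate of the spread, and gave the same comparison under the other vector. The donor T cells were from Smarta mice, whose T cells carry a transgenic receptor for the viral peptide GP61-80, crossed to a line with CreERT2, a Cre recombinase switched on by tamoxifen. The cells were transduced with an inducible retroviral vector, which held no insert in the empty vector groups, and were transferred into C57BL/6 hosts. Hosts were immunized subcutaneously with nitrophenol and GP61-80 on mouse serum albumin. Tamoxifen was injected on day 5, and cells were taken 18 hours later, on day 6, from inguinal lymph nodes that had been pooled. Both empty vector groups therefore carried CreERT2 and a retrovirus and had been exposed to tamoxifen. Donor cells were sorted as Thy-1.1+ and CD44hi, Tfh cells as CXCR5+ PD-1+ and non-Tfh cells as CXCR5- PD-1-. The promoter that drives CreERT2 is not given in the sources used here, and the labels do not say whether the replicates came from separate animals or cultures, so p-values measure only the spread between these samples.

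Tfh cells are the helper T cells that settle in B cell follicles, where they keep B cells alive, drive germinal centres and direct antibody class and affinity. The repressor Bcl6 is required for the fate, and Blimp-1, encoded by Prdm1, opposes it. CXCR5, the receptor for the follicle chemokine CXCL13, brings the cells into the follicle, and interleukin 21, interleukin 4 and CD40 ligand act on the B cells there. The non-Tfh cells of the same response include effector cells that leave the node for tissues, of which the type 1 kind makes interferon gamma under the factor T-bet.

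The 4 libraries held 7862879 to 9889859 counts, with 14706 to 15165 genes detected, and mitochondrial genes took 0.860% to 1.10% of the counts. Levels are given in CPM, counts scaled to a common library size, and a count of 0 allows up to 0.303 to 0.382 CPM at 95% confidence (a floor of 3 counts, for counting error only). Trbv13-1 held 99.8% to 99.9% of all counts over beta chain V genes and Trav14d-3-dv8, a gene with close copies, 82.9% to 88.5% of those over alpha chain V genes. The gate itself showed at the RNA level and is no finding. Cxcr5 stood at 815 and 694 CPM in Tfh libraries and at 28.3 and 17.4 CPM in non-Tfh libraries. Pdcd1, which encodes PD-1, stood at 659 and 454 CPM against 202 and 162 CPM. Its transcripts were thus well above the floor in cells sorted as PD-1-. Cd44 did not differ by the test (242 and 191 against 244 and 201 CPM), and Thy1 read 65.7 and 82.9 against 103 and 115 CPM.

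Markers of cell types that a lymph node sort could carry along were low, apart from genes that were clearly present in every library. Of 14 B cell markers counted, Ighm and Cd22 made up nearly all of the summed level of 934 to 1022 CPM in Tfh and 448 to 549 CPM in non-Tfh libraries. Pax5, Ebf1 and Fcer2a were each at or below 0.982 CPM in all 4. Of 7 tested B cell markers, only Ighm and Cd22 differed by the test given below, both higher in Tfh cells (28.6%, against 21.9% of all genes). The median log2 fold change of the tested markers was -0.60, so the others did not share that direction as a set. Ighm itself read 784 and 736 CPM in Tfh against 417 and 319 CPM in non-Tfh libraries, and Cd22 read 230 and 193 against 116 and 124 CPM. The 12 macrophage and monocyte markers summed to 9.16 to 20.3 CPM, with Cd14 and Fcgr1 at 0 in every library. The 10 dendritic cell markers summed to 3.51 and 5.44 CPM in Tfh and 19.3 and 20.03 CPM in non-Tfh libraries, where Xcr1, Batf3 and Itgax made up much of the sum. Clec9a was at 0 in all 4 libraries and Siglech at 0 in 3 of them. Cd8a was at 0.100 to 0.223 CPM. The 9 markers of natural killer and innate lymphoid cells, which include the T cell gene Gata3, summed to 152 and 139 CPM in Tfh against 241 and 254 CPM in non-Tfh libraries, with Ncr1 at 0 in all 4. Gata3 alone read 84.6 and 76.2 against 188 and 210 CPM, a wider gap than that of the sum. Of 5 tested members, 3 were lower by the test given below and 1, Klrb1c, was higher (80%, against 21.9% of all genes). MHC class II genes and their partners summed to 90.2 and 94.4 against 129 and 91.0 CPM. Stromal and endothelial genes, almost all Pecam1, summed to 229 and 236 against 183 and 183 CPM. Plasma cell genes, which include Irf4 and Prdm1, summed to 246 and 225 against 329 and 325 CPM. Of 7 tested plasma cell genes, 3 were lower by the same test and 1 was higher (57.1%, against 21.9% of all genes). The higher gene was Sdc1 (log2 2.61), and Mzb1 was among the lower (log2 -5.92). Neither passed against a 1.5-fold change. Markers of neutrophils, red cells and gamma delta T cells summed to at most 1.42 CPM in a library. The part of these cell types in the differences below was not tested.

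The cell type difference reached 2515 of 11475 tested genes, 21.9% of them. Of these, 1213 (10.6%) were higher in Tfh cells and 1302 (11.3%) were lower. The test was the quasi-likelihood test of edgeR, at an adjusted p (Benjamini-Hochberg) below 0.05. Such genes are described as called, higher or lower. A subset of 397 genes (3.46%) was called and at least 2-fold higher, and 502 (4.37%) were called and at least 2-fold lower. At 8-fold, 72 genes (0.627%) were higher and 104 (0.906%) were lower. The median log2 fold change over all tested genes was 0.01. Leaving out 1 library lowered the counts, to 621 higher and 720 lower without replicate 2 of the non-Tfh cells, 685 and 729 without replicate 1 of the Tfh cells, and 807 and 840 without replicate 1 of the non-Tfh cells. Of the calls made without these libraries, 98.0%, 96.6% and 95.9% in the same order were among the 2515. RNA was measured in bulk, so fewer cells that express a gene and less RNA per cell cannot be told apart in any of these values.

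**Figure D1:**
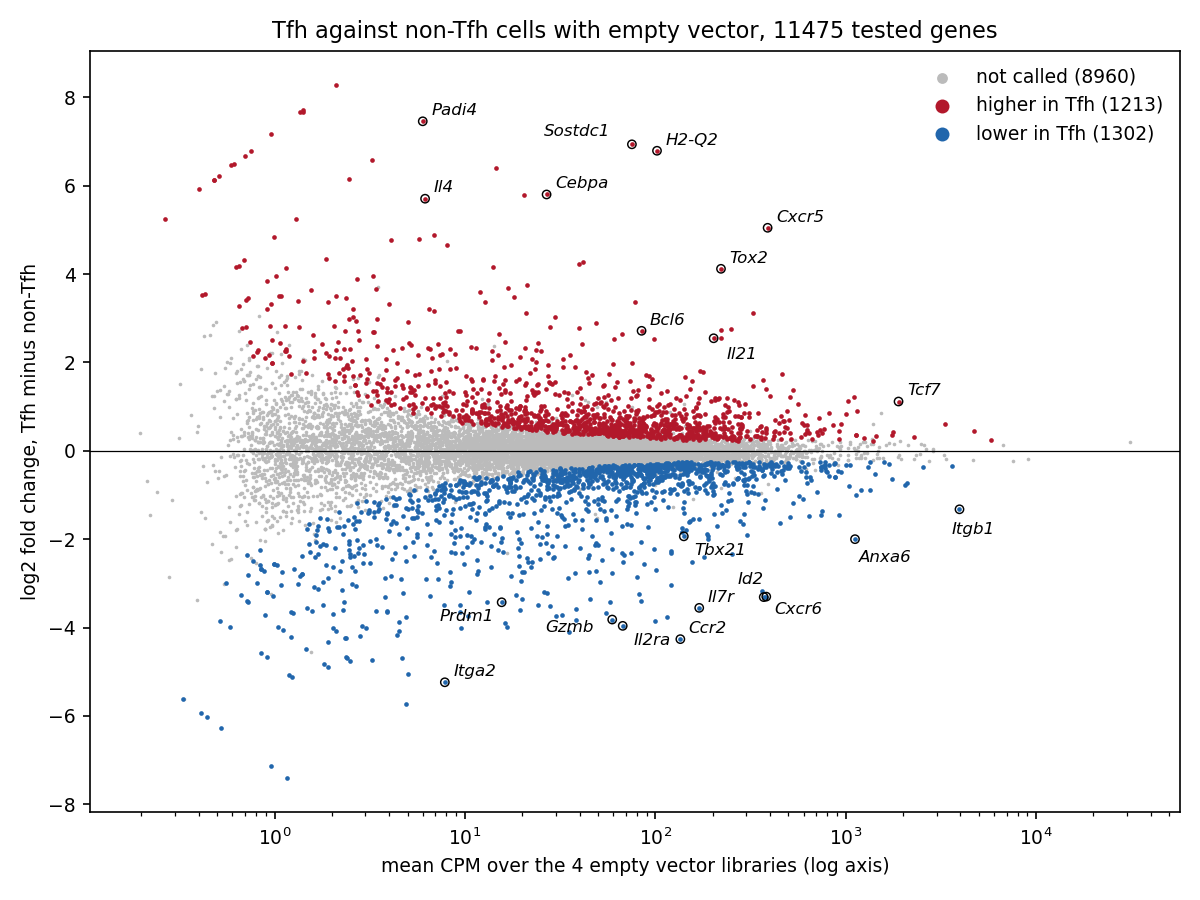
Log2 fold change (Tfh minus non-Tfh, empty vector) of each of 11475 tested genes against its mean CPM over the 4 libraries, on a log axis. Red points are the 1213 genes called higher and blue points the 1302 called lower in Tfh cells, grey points were not called, and circled genes are named in the text.

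Of the 22 Tfh-promoting transcription factors listed, 21 were tested, and 15 were higher, 2 lower and 4 not called. That is 81% called, against 21.9% of all tested genes, and the median log2 fold change was 1.12 against 0.01. Members of this and the later lists were chosen with earlier results of these data known. Their counts, shares and medians therefore describe the lists only. Bcl6, the repressor that defines the lineage (chromosome 16, 23965052 to 23988852 on GRCm38), stood at 159 and 135 CPM in Tfh and 20.6 and 24.2 CPM in non-Tfh libraries. The groups lay far apart, and the log2 fold change was 2.71 (SE 0.139, adjusted p = 2.29e-08, edgeR's quasi-likelihood test), or 6.57-fold. Tox2, an HMG-box factor that acts with Bcl6, read 473 and 364 CPM against 29.9 and 18.3 CPM, a 17.4-fold difference (log2 4.12, SE 0.266, adjusted p = 5.78e-05). Its relative Tox read 274 and 195 CPM against 90.9 and 66.0 CPM (log2 1.58). Ascl2, a basic helix-loop-helix factor that can switch on Cxcr5, was scarce: it read 6.52 and 3.16 CPM in Tfh cells, and the non-Tfh libraries pooled 1 count. The ratio was 91.4, with a 95% counting interval of 16 to 3651. This interval pools the libraries of a group and leaves out the spread between them. Cebpa, a factor best known from myeloid cells, had the largest difference of the list's members above 10 CPM, at 62.2 and 43.3 CPM against 1.42 and 0.445 CPM (55.7-fold).

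Factors of the T cell core were also higher, by smaller ratios. Tcf7, which encodes TCF-1, a factor that opens the Tfh fate and preserves stem-like T cells, read 2721 and 2459 CPM against 1286 and 1106 CPM (log2 1.12, SE 0.0919, adjusted p = 1.19e-06). Its partner Lef1 read 308 and 323 CPM against 183 and 156 CPM (log2 0.89). Per kilobase of exon, Tcf7 was the highest of the 44 tested members of both factor lists in each cell type, at 987 CPM per kb in Tfh and 456 CPM per kb in non-Tfh cells. Pou2af1, the octamer coactivator OCA-B, read 112 and 95.3 CPM against 19.5 and 16.3 CPM (5.79-fold). Myb read 126 and 113 CPM against 27.9 and 32.4 CPM (log2 1.99). Maf, a driver of interleukin 21, moved less (log2 0.58), as did Hif1a (0.84). Nfatc1, the calcium-responsive factor that accumulates in Tfh cells, read 1608 and 1468 CPM against 685 and 632 CPM (log2 1.22). Of the 4 not called, Batf read 163 and 141 against 149 and 137 CPM and Stat3 read 507 and 468 against 485 and 442 CPM, so that Tfh and non-Tfh libraries overlapped for both. The 2 lower members were Irf4, a factor induced by receptor signal strength, at 44.5 and 44.0 CPM against 92.1 and 102 CPM (log2 -1.13, SE 0.147), and Egr3. Egr3 was under 11 CPM throughout, and its adjusted p of 0.0379 became 0.223 without Tfh replicate 2, 0.205 without non-Tfh replicate 1 and 0.0802 without non-Tfh replicate 2. By DESeq2 it was 0.0511. The count of 15 higher held whichever of the 4 libraries was left out.

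Of the 23 effector and Tfh-opposing factors, all tested, 12 were lower, 3 higher and 8 not called (65.2% called, against 21.9% of all genes). Their median log2 fold change was -0.95. Prdm1 (chromosome 10, 44437177 to 44528501), the gene of the antagonist Blimp-1, read 2.41 and 2.91 CPM in Tfh and 29.7 and 27.4 CPM in non-Tfh libraries. All 4 values were above the floor, and the Tfh libraries were 10.8-fold lower (log2 -3.43, SE 0.277, adjusted p = 1.05e-06). Id2 (chromosome 12, 25093799 to 25097140), which encodes an inhibitor of E proteins, read 58.8 and 82.8 CPM against 622 and 766 CPM (log2 -3.30, SE 0.289, adjusted p = 0.000629). Id3, its paralogue, went the other way at 318 and 343 CPM against 251 and 222 CPM (log2 0.48). Per kilobase of exon, Id2 stood at 29.0 in Tfh and 285 in non-Tfh cells and Id3 at 185 and 132 CPM per kb, so the more abundant of these inhibitors was Id3 in Tfh and Id2 in non-Tfh cells. Of the E proteins they bind, Tcf12 was higher (153 and 142 against 101 and 101 CPM, log2 0.55), and Tcf3 was not called (143 and 144 against 155 and 157 CPM).

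The type 1 factor Tbx21, which encodes T-bet, read 46.3 and 71.2 CPM in Tfh against 210 and 237 CPM in non-Tfh libraries (log2 -1.94, SE 0.199, adjusted p = 0.000227). The transcript was reduced and not lost, and Tfh replicate 2 was the higher of the Tfh libraries. Runx2 (log2 -2.09), Runx3 (-1.70), Bhlhe40 (-2.41) and Hopx (-2.23), factors linked to effector and cytotoxic programmes, were all lower. Bhlhe40 read 61.4 and 52.5 CPM against 292 and 313 CPM. Gata3, the type 2 factor, read 84.6 and 76.2 CPM against 188 and 210 CPM (log2 -1.30), and Ahr, a ligand-activated factor of Th17 and tissue T cells, read 18.7 and 19.9 against 73.6 and 73.1 CPM (log2 -1.93). Bach2, whose vector defines the rest of the series, was itself lower in Tfh cells at 11.2 and 14.1 CPM against 24.9 and 28.9 CPM (log2 -1.10, SE 0.157). The 3 higher members were signal transducers with small differences, Stat4 at log2 0.39, Stat5a at 0.32 and Stat5b at 0.33. Stat5b lost its call without Tfh replicate 1 (adjusted p = 0.0845) or non-Tfh replicate 2 (0.117), and Stat5a without any 1 of the 4 (0.0868 to 0.229) and by DESeq2 (0.0672). Klf2, which restrains Tfh fate and keeps egress receptors on, read 188 and 301 CPM against 419 and 524 CPM, with all Tfh values below all non-Tfh values. Its adjusted p of 0.0787 missed the threshold (log2 -0.95, SE 0.292). Foxo1 read 212 and 215 against 201 and 203 CPM and was not called.

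**Figure D2:**
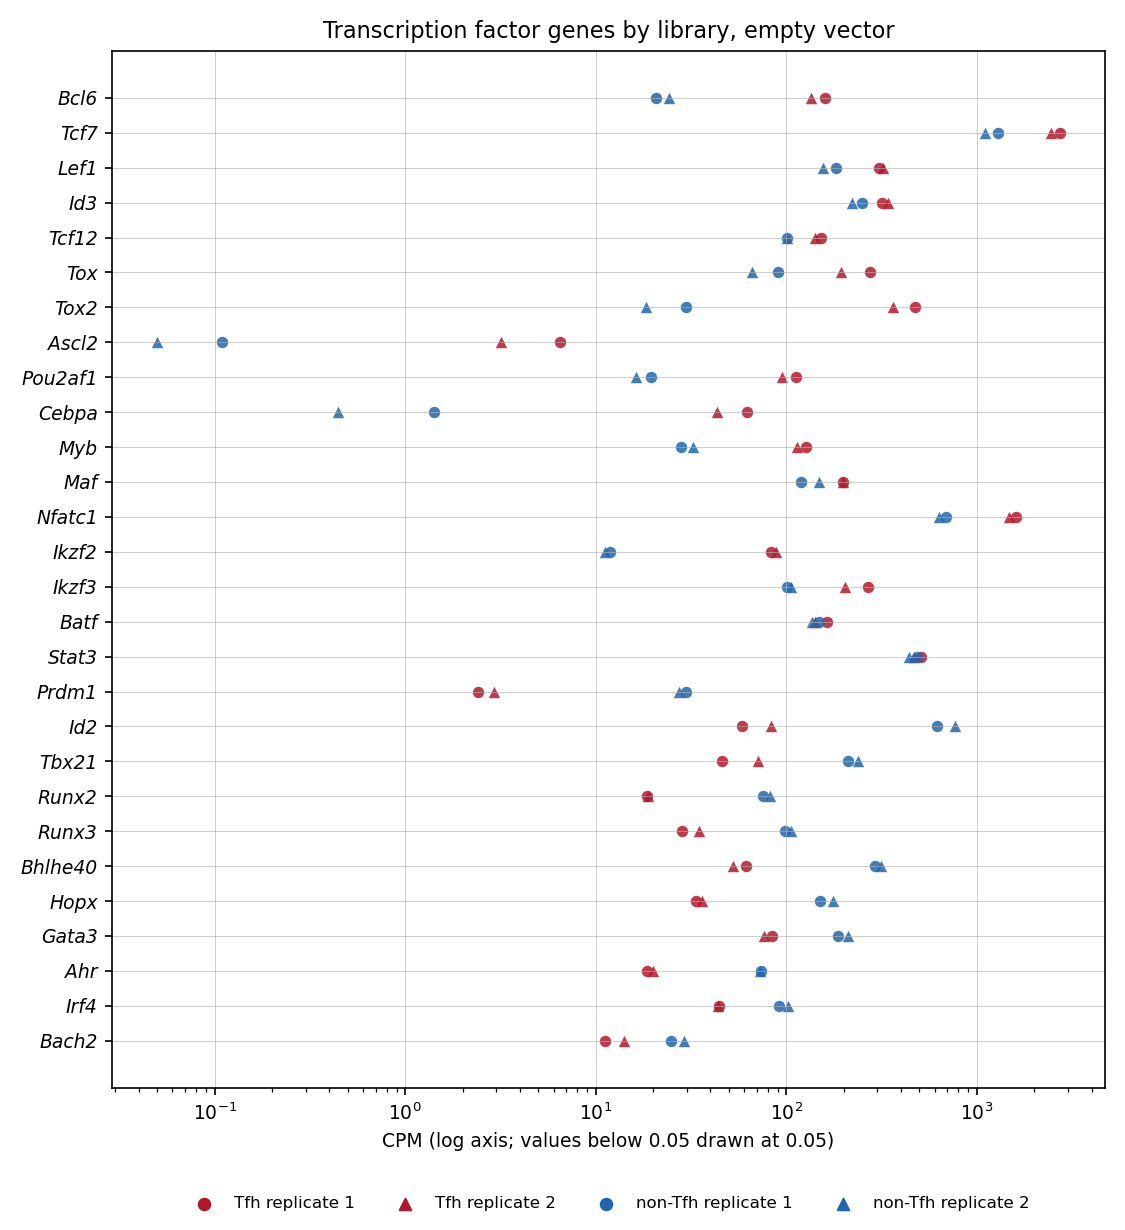
CPM of 28 transcription factor genes in each of the 4 empty vector libraries, on a log axis, with Tfh in red, non-Tfh in blue, replicate 1 as circles and replicate 2 as triangles. The pairs separate widely for Bcl6, Tox2, Cebpa, Prdm1 and Id2, and overlap for Batf and Stat3.

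The 250 bases before the start site of 4 of these genes are shown because these factors stood at opposite ends of the comparison, Bcl6 and Ascl2 higher and Prdm1 and Id2 lower. They are from RefSeq on GRCm38.p6, at the most upstream start that RefSeq lists for each gene, all on the minus strand. For Prdm1 and Id2 that start lies inside the GENCODE gene whose span is given above, so other starts of those genes lie further upstream. The stretches are Bcl6 chr16:23988853-23989102, Ascl2 chr7:142969265-142969514, Prdm1 chr10:44458749-44458998 and Id2 chr12:25096093-25096342. Capitals mark every match, on either strand, to 6 motifs: the E-box CAGCTG, the TCF/LEF core CTTTGA, the RUNX core TGTGGT, the STAT element TTCNNNGAA, the AP-1 site TGANTCA and the KLF box CCACCC.
Bcl6: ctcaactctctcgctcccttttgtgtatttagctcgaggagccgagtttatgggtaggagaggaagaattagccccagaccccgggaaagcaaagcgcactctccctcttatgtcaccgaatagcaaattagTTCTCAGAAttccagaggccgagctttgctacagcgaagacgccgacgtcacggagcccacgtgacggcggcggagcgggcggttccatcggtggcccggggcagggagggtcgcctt
Ascl2: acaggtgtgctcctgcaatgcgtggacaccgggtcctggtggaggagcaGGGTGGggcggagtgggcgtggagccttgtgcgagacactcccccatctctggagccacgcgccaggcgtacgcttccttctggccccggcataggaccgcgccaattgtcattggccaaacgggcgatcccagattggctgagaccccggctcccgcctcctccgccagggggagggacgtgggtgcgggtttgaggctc
Prdm1: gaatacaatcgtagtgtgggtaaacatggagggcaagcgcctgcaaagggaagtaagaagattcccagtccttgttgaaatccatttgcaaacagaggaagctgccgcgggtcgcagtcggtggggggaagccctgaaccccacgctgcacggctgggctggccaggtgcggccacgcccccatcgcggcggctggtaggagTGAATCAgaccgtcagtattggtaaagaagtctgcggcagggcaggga
Id2: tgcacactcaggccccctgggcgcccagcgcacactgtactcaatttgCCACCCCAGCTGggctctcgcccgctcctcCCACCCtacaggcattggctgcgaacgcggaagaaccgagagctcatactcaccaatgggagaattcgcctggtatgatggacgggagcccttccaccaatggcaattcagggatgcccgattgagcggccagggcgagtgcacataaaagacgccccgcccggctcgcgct

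The Bcl6 stretch held 1 STAT element, 118 bases before the start, the Prdm1 stretch 1 AP-1 site, 48 bases before it, the Ascl2 stretch 1 KLF box on the other strand, and the Id2 stretch 2 KLF boxes, the first of which adjoins an E-box. A match is a description of letters only. Over 8721 tested genes with a RefSeq stretch, the STAT element was in 5.88%, the AP-1 site in 3.76%, the E-box in 10.9% and the KLF box in 32.1%. Among the 301 such genes called at least 2-fold higher the E-box was in 16.6%, and among the 375 called at least 2-fold lower in 14.7%. The RUNX core was in 11.3% of the former, 18.4% of the latter and 10.9% of all. The TCF/LEF core was in 10.6%, 12.3% and 10.7%. The KLF box was in 40.5% and 40.3%, near-equal shares in both directions. The STAT element was in 5.32% of the genes called at least 2-fold higher and 7.73% of those lower. For the AP-1 site the shares were 4.98% and 6.93%. No test was made of any of these shares. Of the 8721 stretches, 80.5% matched a GENCODE transcript start when checked.

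Members of a list of Tfh surface receptors, adaptors and related genes were mostly higher. The list also holds other genes, among them the secreted Sostdc1 and Angptl2, the signalling regulators Rgs10 and Rgs16 and the phosphatase Ptpn13. Of 24 listed, 23 were tested, and 18 were higher, 2 lower and 3 not called (87% called, against 21.9% of all genes, median log2 1.38). Fewer were called higher whichever of the 4 libraries was left out. Tigit, an inhibitory receptor for CD155, read 404 and 351 CPM in Tfh against 72.8 and 55.3 CPM in non-Tfh libraries (log2 2.56, SE 0.124, adjusted p = 2.46e-08). P2rx7, the ATP-gated channel that limits Tfh survival, read 481 and 388 CPM against 67.9 and 60.8 CPM (log2 2.76, SE 0.114, adjusted p = 8.13e-09). Both pairs of libraries were far apart. Sh2d1a, which encodes the adaptor SAP that sustains contact with B cells, read 308 and 285 CPM against 133 and 129 CPM (log2 1.18), and Slamf6, a receptor that signals through it, was higher by 0.86. Cd160 read 186 and 151 against 30.2 and 28.1 CPM, and Btla, which shares its ligand HVEM, read 343 and 317 against 206 and 180 CPM. Tnfsf8, the ligand of CD30, was 3.35-fold higher at 791 and 632 against 214 and 211 CPM.

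Icos, the costimulator that Tfh cells depend on, was on the other side. It read 585 and 747 CPM in Tfh and 938 and 916 CPM in non-Tfh libraries (log2 -0.48, SE 0.103, adjusted p = 0.00442), and without Tfh replicate 1 the call was lost (adjusted p = 0.0569). The second lower member was Slamf1 (log2 -0.46), which lost its call without Tfh replicate 1 (adjusted p = 0.152) or non-Tfh replicate 2 (0.144). Sostdc1, a secreted antagonist of BMP and Wnt signals, read 198 and 101 CPM against 1.75 and 0.668 CPM, the largest ratio of the list (122-fold). The Tfh replicates of Sostdc1 differed from each other, and its adjusted p of 0.00632 became 0.0502 and 0.0657 without either non-Tfh replicate. Angptl2, which encodes a secreted angiopoietin-like protein, read 669 and 496 CPM against 83.7 and 51.1 CPM, with an adjusted p of 0.00987 that became 0.0660 without Tfh replicate 1 and 0.0558 without non-Tfh replicate 2. Of the 3 not called, Cd83 read 47.0 and 73.9 CPM against 30.3 and 25.4 CPM, Ly9 differed by 0.07 and Tnfrsf8, the CD30 gene, was at or below 8.40 CPM.

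Among 14 ligands and cytokines of B cell help, 10 were tested, and 3 were higher, 1 lower and 6 not called (median log2 0.24). That is 40% called, against 21.9% of all genes. Il21, the main Tfh cytokine, read 394 and 297 CPM in Tfh against 62.4 and 56.0 CPM in non-Tfh libraries, a 5.84-fold difference (log2 2.55, SE 0.234, adjusted p = 0.000290). Il4, which drives class switching, read 14.2 and 10.1 CPM against 0.327 and 0.111 CPM (log2 5.70, SE 0.622, adjusted p = 2.25e-05). Non-Tfh libraries were at or near the floor for Il4 and well above it for Il21. Il13 and Il9 were at 0 in all 4 libraries and Il5, a type 2 cytokine of another list, as well, each of which allows up to 0.382 CPM. Cd40lg, the CD40 ligand, read 213 and 192 CPM against 164 and 168 CPM, higher in both Tfh libraries, with an adjusted p of 0.0767 (log2 0.29, SE 0.108). Bmp7, the remaining higher gene, read 27.6 and 15.1 against 8.84 and 5.45 CPM, and lost its call without Tfh replicate 1 (adjusted p = 0.111) or non-Tfh replicate 2 (0.135). Ltb, a lymphotoxin subunit, was lower (log2 -0.35) and lost its call without Tfh replicate 1 (0.229) or either non-Tfh replicate (0.0989 and 0.0855). Tnf did not differ by the test (42.8 and 33.4 against 36.7 and 29.7 CPM).

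The list of type 1 and cytotoxic effector genes was lower almost throughout. It also holds genes that are not particular to type 1 or cytotoxic cells, among them S100a6 and S100a11, described below. Of 44 listed, 43 were tested, and 38 were lower, 1 higher and 4 not called (90.7% called, against 21.9% of all genes). The median log2 fold change was -2.32, and most of the 38 stayed lower whichever library was left out. Ifng, the defining type 1 cytokine, read 19.4 and 18.1 CPM in Tfh against 93.0 and 70.5 CPM in non-Tfh libraries (log2 -2.12, SE 0.209, adjusted p = 1.96e-05). Gzmb, a cytotoxic protease, read 5.72 and 10.3 CPM against 105 and 116 CPM (log2 -3.82, SE 0.321), and Prf1, the pore-forming perforin, 1.51 and 1.90 CPM against 14.0 and 11.6 CPM (log2 -2.91). Nkg7, a protein of cytotoxic granules, read 51.7 and 95.4 CPM against 568 and 738 CPM. Its adjusted p of 0.00923 became 0.0516 without non-Tfh replicate 2. Reads of the granzymes, of Ccl3, Ccl4 and Ly6c2 and of the Klr receptors may be split with related genes where these are close copies. How close each relative is was not checked, and the values carry that uncertainty. Klrd1 and Klrc1, subunits of an inhibitory natural killer receptor, were lower (log2 -3.27 and -2.88), and Havcr2, which encodes TIM-3, read 5.52 and 4.81 CPM against 46.5 and 51.0 CPM (log2 -3.23).

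Receptors that receive type 1 signals followed. Il18r1 read 11.6 and 18.9 CPM in Tfh against 100 and 105 CPM in non-Tfh libraries (log2 -2.77), and Il18rap, its signalling partner, read 39.7 and 53.7 against 257 and 271 CPM (log2 -2.51). Il12rb2, the inducible chain of the interleukin 12 receptor, was lower (log2 -1.32). Cxcr3, a receptor for interferon-induced chemokines, did not follow, at 459 and 605 CPM against 642 and 605 CPM (log2 -0.23, adjusted p = 0.211). Fasl, Ly6c1 and S100a6 were the other tested members not called (log2 -0.28, -0.60 and -0.74). The single higher member was S100a11, at 506 and 545 CPM against 293 and 353 CPM (log2 0.70), whereas the related S100a4 read 78.9 and 80.7 against 311 and 278 CPM (log2 -1.88). Anxa6, an annexin, had one of the clearest differences at high level, 400 and 496 CPM against 1808 and 1770.0 CPM (log2 -2.00, SE 0.100, adjusted p = 2.29e-08). In 31 of the 38 lower members Tfh replicate 2 was above Tfh replicate 1, and in 29 of them non-Tfh replicate 2 was above replicate 1. Among all 1302 lower genes these shares were 66.1% and 58.1%, and among genes not called 49.7% and 48.8%. Among the 1213 higher genes they were 31.6% and 32.4%. Of the 18 higher members of the surface receptor list, 2 had replicate 2 above replicate 1 in Tfh cells and 2 in non-Tfh cells. The shift between replicates was thus not particular to effector genes.

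**Figure D3:**
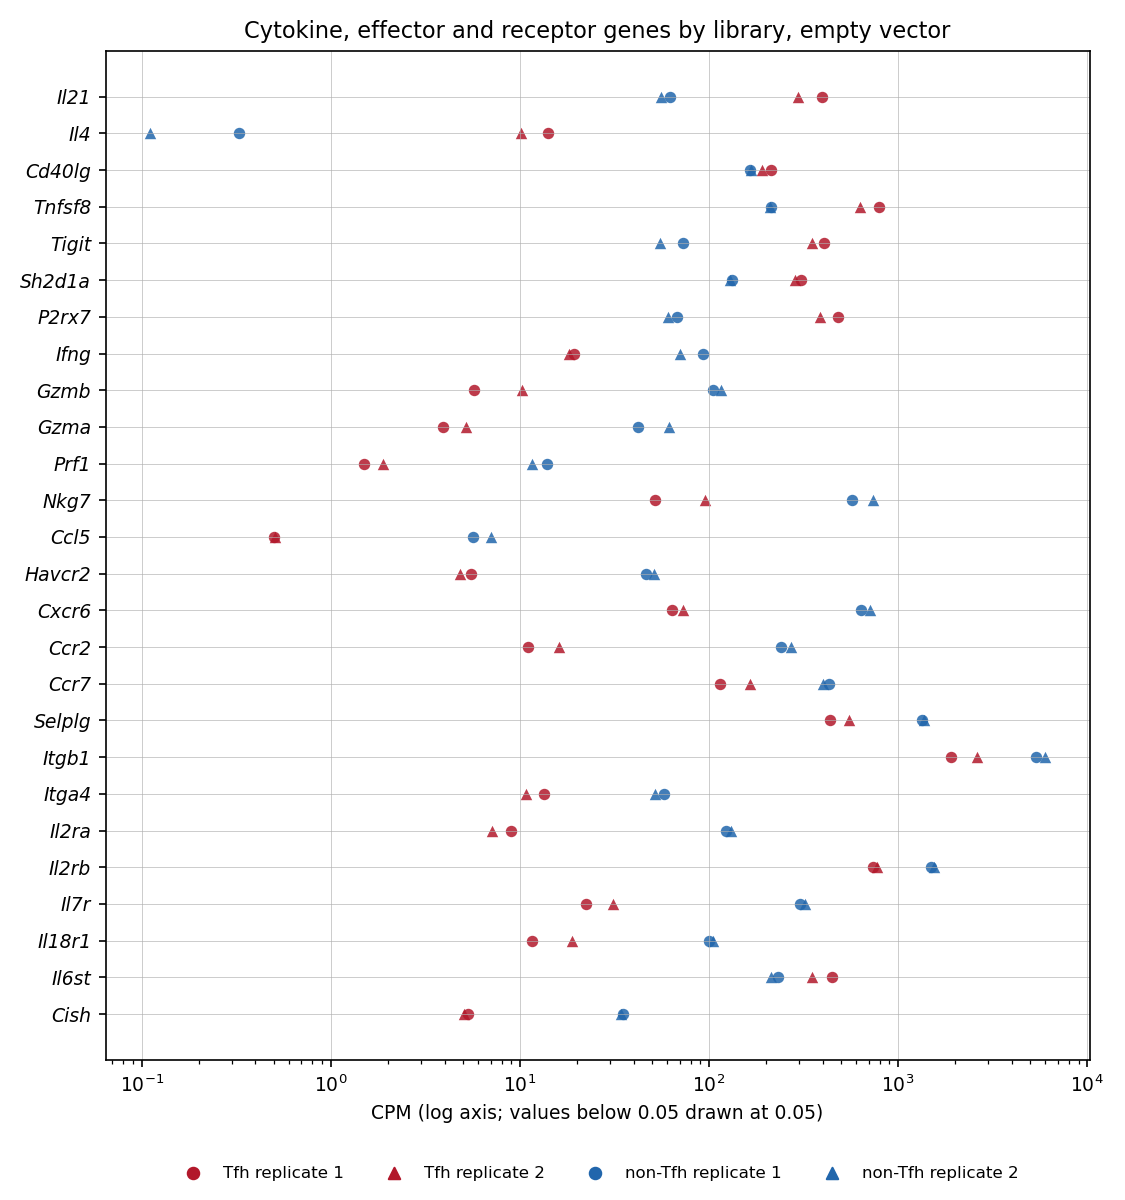
CPM of 26 cytokine, effector, homing and receptor genes in each of the 4 empty vector libraries, on a log axis, with colours for cell type and shapes for replicate. Il21, Il4, Tigit and P2rx7 lie higher in both Tfh libraries, and the granule, chemokine receptor and Il2ra values lie higher in both non-Tfh libraries.

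Genes of other helper types differed in both directions. Of 16 Th17 genes, 15 were tested, and 10 were lower and 2 higher (80% called, against 21.9% of all genes, median log2 -2.26). Il17re, a receptor chain for interleukin 17C, read 0.201 and 0.380 CPM in Tfh against 10.1 and 9.35 CPM in non-Tfh libraries (log2 -5.05). Il17f pooled 4 counts in Tfh and 114 counts in non-Tfh libraries. The 2 higher members were Maf, described above, and Il1r1, the interleukin 1 receptor, at 143 and 87.2 CPM against 22.1 and 14.5 CPM (log2 2.65, SE 0.395, adjusted p = 0.00558). The lower count was 6 without either Tfh replicate or without non-Tfh replicate 1. Of 12 Th2 genes 8 were tested, 4 lower and 2 higher (75% called), Il4 among the latter while Gata3 was among the former. Of 16 regulatory T cell genes, 14 were tested, and 7 were lower and 3 higher (71.4% called). Foxp3, the regulatory lineage factor, was at 0 and 0.380 CPM in Tfh and 0.327 and 3.12 CPM in non-Tfh libraries and was not called. Ikzf2, which encodes Helios, was nevertheless higher at 83.6 and 88.6 CPM against 11.9 and 11.1 CPM (log2 2.90, SE 0.169, adjusted p = 5.53e-08). Itgb8, an integrin chain that activates TGF-beta, pooled 50 counts in Tfh and 0 in non-Tfh libraries, at least 16.9-fold higher against a floor of 3 counts over the group.

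Receptors for chemokines, egress and adhesion were lower more often than higher. Of 38 listed, 35 were tested, 20 lower, 5 higher and 10 not called (71.4% called, against 21.9% of all genes, median log2 -0.88). The lower count fell to 13 without non-Tfh replicate 2. Ccr7, which holds T cells in the T zone, read 114 and 165 CPM in Tfh against 433 and 398 CPM in non-Tfh libraries (log2 -1.58, SE 0.219, adjusted p = 0.00247). Selplg, the P-selectin ligand PSGL-1, read 438 and 552 against 1338 and 1366 CPM (log2 -1.45). Inflammatory receptors were further apart. Cxcr6 read 63.5 and 72.5 CPM against 637 and 711 CPM (log2 -3.31, SE 0.178, adjusted p = 2.40e-06). Ccr2 read 11.04 and 16.1 against 241 and 273 CPM, a 19.2-fold difference whose adjusted p of 0.00669 became 0.0767 and 0.0518 without Tfh replicates 1 and 2. Gpr15, a homing receptor for the colon, was lower (log2 -3.35).

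The 5 higher members included receptors known from follicles and germinal centres. Cxcr4, the receptor of the dark zone chemokine CXCL12, read 40.8 and 32.1 CPM in Tfh against 6.87 and 10.5 CPM in non-Tfh libraries (log2 2.08, SE 0.212, adjusted p = 8.94e-06). S1pr2, which confines cells to the germinal centre, read 84.1 and 55.3 against 31.6 and 29.1 CPM (log2 1.20). Gpr183, the oxysterol receptor EBI2 that draws cells to the follicle edge, was higher too (279 and 293 against 157 and 179 CPM, log2 0.77), and so was the prostaglandin receptor Ptger2 (log2 1.32), while its relative Ptger4 was lower (-1.28). The fifth was the integrin chain Itgal (log2 0.35), which lost its call without Tfh replicate 1 (adjusted p = 0.289) or non-Tfh replicate 2 (0.247). S1pr1, the egress receptor, read 470 and 593 CPM against 727 and 683 CPM and was not called (log2 -0.41, adjusted p = 0.122). Among integrins, Itgb1 was the most abundant in counts, at 1908 and 2610.0 CPM against 5342 and 5964 CPM (log2 -1.32, SE 0.189, adjusted p = 0.00196). The collagen-binding chains Itga1 and Itga2 that pair with it were lower (log2 -3.75 and -5.24). Itgae and Itgb7, which pair to bind E-cadherin, were lower (log2 -3.42 and -0.88). Itgb2, the partner of Itgal, did not differ by the test (1142 and 1152 against 1126 and 1130.0 CPM).

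Cytokine receptors split by cytokine. Of 38 genes, all tested, 8 were higher, 11 lower and 19 not called (50% called, against 21.9% of all genes, median log2 -0.15). The interleukin 2 receptor was lower in all its chains. Il2ra, the high-affinity alpha chain CD25, read 9.03 and 7.09 CPM in Tfh against 123 and 130.4 CPM in non-Tfh libraries (log2 -3.96, SE 0.166, adjusted p = 8.13e-09). Il2rb was lower at 739 and 776 against 1489 and 1542 CPM, and Il2rg as well (log2 -0.66). Feedback inhibitors of cytokine signalling went both ways. Cish read 5.32 and 5.06 against 35.1 and 34.4 CPM (log2 -2.74), and Socs2 read 0.301 and 1.14 against 8.07 and 5.68 CPM (log2 -3.31). Il7r, which receives the survival cytokine interleukin 7, read 22.5 and 31.3 against 304 and 322 CPM (log2 -3.55, SE 0.313, adjusted p = 0.000592). Ifngr1 was lower (log2 -1.71). In the other direction were Il6st, the shared chain gp130 of the interleukin 6 receptor, at 448 and 351 against 233 and 212 CPM (log2 0.85), Il21r (0.45), Ifnar2 (0.93), Jak2 (0.78) and Socs1, at 126 and 129 against 57.3 and 74.6 CPM (0.95). Smad7, an inhibitor of TGF-beta signalling, read 6.62 and 5.69 CPM against 35.6 and 41.3 CPM (log2 -2.63).

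Of 29 naive and memory genes, 28 were tested, 13 lower and 5 higher (64.3% called, against 21.9% of all genes, median log2 -0.44). The list thus did not move as 1 block. Tcf7 and Lef1 were higher while Il7r and Ccr7 were lower, as given above. Cd27, a costimulator, was higher at 496 and 461 CPM against 168 and 179 CPM (log2 1.46, SE 0.0856, adjusted p = 5.53e-08). Satb1, a chromatin organizer, read 347 and 413 against 780 and 848 CPM (adjusted p = 0.00520, and 0.0650 without Tfh replicate 1). Igfbp4 and Dapl1, genes of quiescent T cells, were lower (log2 -3.64 and -2.71).

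Of 34 costimulatory and inhibitory receptors, 31 were tested, 8 higher and 13 lower (67.7% called, against 21.9% of all genes, median log2 -0.15). Fas, the death receptor, read 139 and 134 CPM in Tfh against 41.9 and 42.0 CPM in non-Tfh libraries (log2 1.70, SE 0.0998, adjusted p = 5.53e-08), and Lag3 read 76.5 and 85.3 against 42.5 and 54.0 CPM (log2 0.74). Cd226, the activating receptor that competes with Tigit for CD155, read 16.3 and 15.9 against 95.01 and 83.7 CPM (log2 -2.47), opposite in direction to Tigit. Entpd1 and Nt5e, the ectoenzymes CD39 and CD73 that act in turn on extracellular ATP, also went opposite ways, Entpd1 lower (log2 -3.36) and Nt5e higher (log2 1.46). The call of Nt5e, which stands in the surface receptor list, was lost without Tfh replicate 1 (adjusted p = 0.109), non-Tfh replicate 1 (0.0818) or non-Tfh replicate 2 (0.123). Ctla4 was lower, at 34.0 and 47.2 against 67.5 and 74.2 CPM (log2 -0.81).

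Genes induced early by the T cell receptor were divided. Of 33 tested members, 10 were higher and 10 lower (60.6% called, against 21.9% of all genes, median log2 -0.11). Egr2, which supports Bcl6 expression, was higher at 197 and 175 CPM against 93.7 and 73.9 CPM (log2 1.15, SE 0.159, adjusted p = 0.000508). Myc, a growth regulator, was lower at 23.1 and 26.6 against 69.6 and 76.5 CPM (log2 -1.56, SE 0.175), and Dusp5, a phosphatase of ERK, as well (log2 -1.17). The higher count fell to 4 without non-Tfh replicate 2, 5 without Tfh replicate 1, and 6 without Tfh replicate 2 or non-Tfh replicate 1. Fos and Jun, subunits of AP-1, followed the replicate number more than the cell type. Fos read 100.5 and 29.7 CPM in Tfh and 55.0 and 11.1 CPM in non-Tfh libraries, and Jun read 61.7 and 10.8 against 60.9 and 12.6 CPM, so that replicate 1 was the higher in both cell types. Dusp1 read 68.2 and 27.3 against 44.8 and 14.9 CPM. None of these 3 was called.

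Of 15 genes that mark the CD4 T cell itself, 8 were higher and 0 lower (53.3% called, against 21.9% of all genes, median log2 0.34). The largest difference was that of Cd247, the zeta chain, at 0.52, and fewer were called higher without non-Tfh replicate 2. Of those not called, Cd4 read 1372 and 1329 against 1279 and 1077 CPM. Among 15 tested KLF and Ikaros factors, 3 were higher and 4 lower (46.7% called). Besides Ikzf2, Ikzf3, which encodes Aiolos, was higher (268 and 204 against 101 and 105 CPM, log2 1.19), and Ikzf1 was not called (601 and 565 against 498 and 491 CPM).

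The lists for proliferation, metabolism and interferon responses had medians within 0.25 of 0 on the log2 scale. Their shares of called genes were 10% for mitosis and 17.4% for DNA replication, under the 21.9% of all genes, and 34.6% for cholesterol synthesis, 36% for interferon-induced genes and 40.7% for glycolysis, above it. Of 60 mitosis genes 5 were lower and 1 higher (median log2 -0.05), and of 46 DNA replication genes 6 were lower and 2 higher (-0.16). Without non-Tfh replicate 2, 0 of the mitosis genes and 1 of the replication genes were lower. Of 27 glycolysis genes 6 were higher and 5 lower. The aldolase Aldoc was higher (35.0 and 28.5 against 8.51 and 6.12 CPM, log2 2.12) and the phosphofructokinase Pfkp as well (log2 0.81), while the glucose transporter Slc2a3 (-1.32) and the enolase Eno1 (-0.80) were lower. The higher count was 3 without non-Tfh replicate 2. Of 26 cholesterol synthesis genes 7 were lower and 2 higher (median -0.12), among them Lss, which closes the sterol ring, at 21.5 and 20.5 against 39.8 and 41.9 CPM (log2 -0.96). The lower count was 3 without Tfh replicate 1 or non-Tfh replicate 2. Of 50 tested interferon-induced genes 17 were lower and 1 higher (median -0.25), and the lower count was 10 without Tfh replicate 1 or non-Tfh replicate 2. Guanylate-binding proteins, GTPases induced by interferon gamma, were among them. Gbp7 read 66.7 and 85.2 against 220 and 237 CPM (log2 -1.59) and Gbp2 read 87.1 and 110 against 178 and 190 CPM (-0.90). These genes also have close relatives in a cluster. Of 14 tested cell cycle inhibitors 6 were lower and 1 higher (50% called, against 21.9% of all genes, median log2 -0.19). Cdkn2c was the only higher member, at 93.3 and 115 against 37.3 and 53.3 CPM (log2 1.20). Cdkn1a was among the lower, at 21.1 and 20.9 against 47.5 and 46.0 CPM (-1.15).

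**Figure D4:**
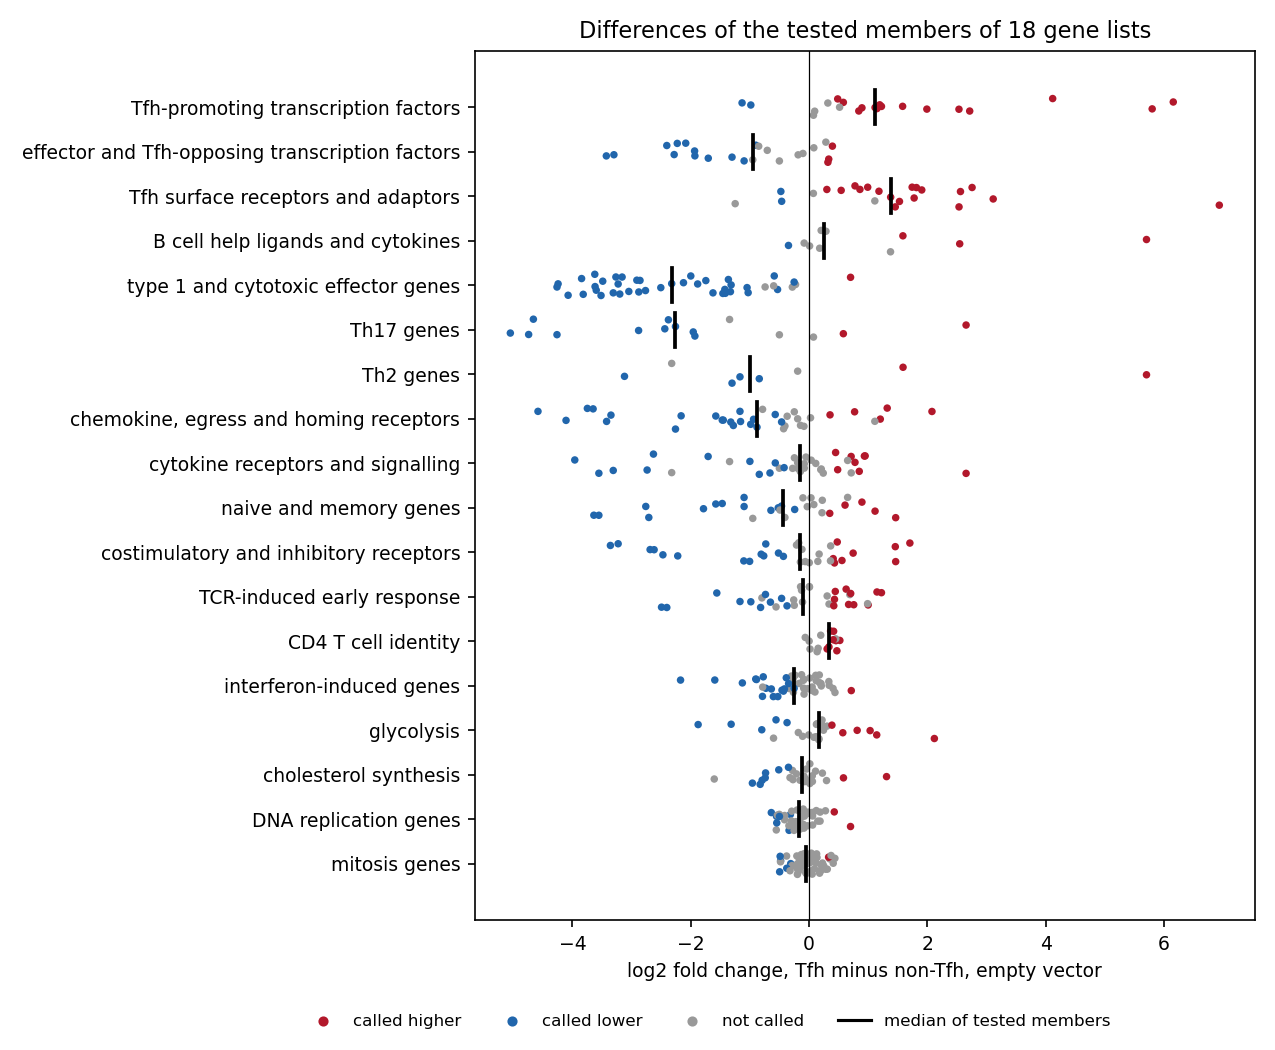
Log2 fold change (Tfh minus non-Tfh, empty vector) of each tested member of 18 gene lists, red if called higher, blue if called lower and grey if not called, with a black bar at the list's median. The medians run from -2.32 for the type 1 and cytotoxic genes to 1.38 for the Tfh surface receptors, and lie near 0 for mitosis and DNA replication.

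The largest differences over all genes, among those of at least 10 CPM in the higher group, included transcripts that none of the lists held. Padi4, an enzyme that converts arginine to citrulline in proteins, read 16.1 and 7.85 CPM in Tfh cells, and non-Tfh libraries pooled 1 count. The ratio was 225.5, with a 95% counting interval of 40.1 to 8947 that also leaves out the spread between libraries. H2-Q2, an MHC class Ib gene with close copies, read 238 and 166 CPM against 1.64 and 2.00 CPM (log2 6.79). Fam43a, Sbk2, Epdr1, Klhl4, Sccpdh, Tubb2a, Coro2b and Slc16a5 were also among the rises, with log2 fold changes of 3.75 to 5.79. Sccpdh read 87.8 and 70.1 against 4.47 and 3.67 CPM, and Slc16a5, a monocarboxylate transporter, 43.4 and 35.4 against 2.95 and 2.89 CPM.

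Among the largest falls were surface and secreted proteins. Hrh4, a histamine receptor, read 5.12 and 4.94 CPM in Tfh against 70.1 and 72.3 CPM in non-Tfh libraries (log2 -3.82, SE 0.174, adjusted p = 9.89e-09). Ggt1, which cleaves extracellular glutathione, read 3.81 and 4.68 against 54.5 and 57.9 CPM (log2 -3.73). Adam8, a membrane protease, read 1.81 and 2.28 against 27.5 and 33.4 CPM, Ust, a sulfotransferase, 1.71 and 0.380 against 17.0 and 19.1 CPM, and Ifitm1, one of a family of close copies, 15.1 and 17.0 against 206 and 225 CPM. The integrin chain Itgb3 read 2.81 and 5.06 against 56.3 and 76.7 CPM. Its adjusted p of 0.0140 became 0.140 and 0.0893 without Tfh replicates 1 and 2 and 0.0708 without non-Tfh replicate 2. Fgl2, which encodes a secreted fibrinogen-like protein, fell by 3.66 on the log2 scale, with an adjusted p of 0.0212 that became 0.157, 0.0972 and 0.0624 without the same 3 libraries. At high level, Ctsb, a lysosomal protease, read 1447 and 1361 against 683 and 605 CPM (log2 1.12), Tbc1d4, a regulator of glucose transporter traffic, 782 and 742 against 287 and 297 CPM (1.39), and Esyt1, a membrane tether, 253 and 278 against 758 and 747 CPM.

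The same cell type difference was measured in the 4 libraries that carried the Bach2 vector, which share no library with the empty vector comparison but share its fit. There 2796 genes (24.4%) were called, 1335 higher and 1461 lower in Tfh cells. The comparisons had 1864 called genes in common, 74.1% of the empty vector calls and 66.7% of the Bach2 vector calls, and all 1864 differed in the same direction. Of the 899 empty vector calls of at least 2-fold, 892 had the same sign with Bach2 and 752 were called there. Values for the leading members stood side by side: Bcl6 differed by 2.71 with empty vector and 2.87 with Bach2 on the log2 scale, Id2 by -3.30 and -2.89, Il2ra by -3.96 and -4.10, and Cxcr6 by -3.31 and -3.23. Prdm1 differed by -3.43 and -2.36.

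In the test of the difference between vectors, 0 of 11475 genes passed by edgeR, with 539 (4.70%) at an unadjusted p below 0.05, and 4 passed by DESeq2. Those 4 were Tigit, Lag3, B4galnt4 and Tnfrsf26. With edgeR the first of them, Tigit, differed between cell types by 2.56 with empty vector and 3.83 with Bach2, and the difference of -1.27 (SE 0.187) had an adjusted p of 0.131. Lag3 differed by 0.74 and 1.83 (adjusted p = 0.141). Leaving out 1 library gave 0 or 1 gene: Trav14-3, a receptor gene with close copies, without replicate 1 of the empty vector non-Tfh cells, and Tigit without replicate 2. A p that misses the threshold does not show that the cell type difference was the same with both vectors.

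**Figure D5:**
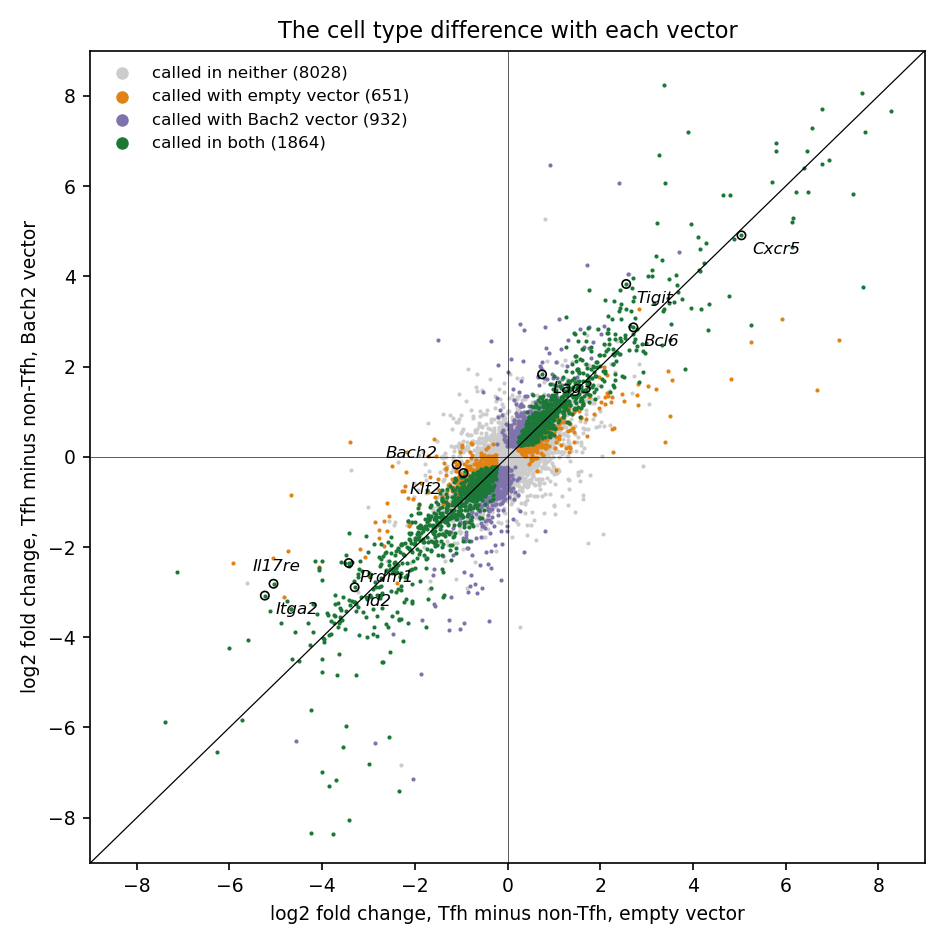
Log2 fold change (Tfh minus non-Tfh) of each of 11475 tested genes with empty vector on the x axis and with Bach2 vector on the y axis, coloured by the comparison in which the gene was called, with a line of equality. The 1864 genes called in both lie towards the lower left and upper right corners, and Tigit and Lag3 lie above the line.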

How the data were processed

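The deposited files held raw counts of reads for 39179 genes, listed by Ensembl ID. Per the submitters' processing notes, the authors used TopHat2, Bowtie2 and featureCounts on GRCm38/mm10. For tool versions, annotation release, strand setting and the treatment of multiply matching reads: not given in the sources used here. Per the labels' protocols, libraries were made with Smart-Seq v4 and Nextera XT, which do not mark strand, so reads of overlapping genes on opposite strands cannot be told apart. Library totals ran from 7862879 to 9889859 counts in the 4 libraries compared. Symbols and positions came from GENCODE M21, which matched 37693 IDs. The other 1486, with 0.196% to 0.201% of the counts of these libraries, stayed in the fit.

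Groups followed the labels. Genes passing filterByExpr (minimum count 10, minimum total 15) were fitted over 8 libraries with 1 coefficient per group in edgeR 4.0.16 (R 4.3.3), with TMM scaling and the robust quasi-likelihood test, Benjamini-Hochberg adjustment over all 11475 genes and 4 residual degrees of freedom. Each SE given is the absolute log2 fold change divided by the square root of the test's F value, and was not estimated separately. The common biological coefficient of variation was 9.89%. In counts simulated over 11246 genes, 100 were changed 2-fold and 100 were changed 4-fold, and every gene had the same spread. There the test recovered 81% of 2-fold and 97% of 4-fold changes, and 6.81% of its calls were false. Real genes differ in spread and far more of them were called, so these rates need not hold here. Exact tests of 2 libraries against 2 were not used. Replicates were not copies of each other (chi-square per degree of freedom 5.98 to 6.09). Named genes were list members, the 15 largest differences in each direction among called genes of at least 10 CPM in the higher group and without overlap, the 10 such genes in each direction of at least 2-fold with most counts, and genes leading the interaction. Members, lists and rules were chosen with earlier results of these data known. Alternatives were DESeq2 1.42.0, other scaling and filters, a 1.5-fold threshold, a replicate block and leaving out each library. Some genes that the rule names are not reported here.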

Additional observations from a re-analysis of the deposited data

How the results depend on the processing

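All 2515 empty vector calls remained with the replicate number as a block, which gave 1393 higher and 1455 lower genes. Deviations of replicate 1 correlated at 0.21 between the empty vector groups, 0.24 between the Bach2 groups and 0.13, 0.12, 0.03 and -0.004 between groups of different vectors, and the labels do not say what a number shares. DESeq2 gave 991 and 1131. Against a 1.5-fold change 302 and 400 genes passed with empty vector and 344 and 424 with Bach2. Leaving out 1 library gave 621 to 968 higher and 720 to 972 lower genes, and 256 to 393 at least 2-fold higher, with 257 without Tfh replicate 1. Between 93.1% and 98.0% of those calls were among the 2515. For the Bach2 vector the range was 884 to 1190 higher genes, the lowest without replicate 2 of its non-Tfh cells. The difference between vectors reached 4 genes by DESeq2, 37 without a filter, 3 with the replicate block (Tigit, Lag3 and B4galnt4) and 0 to 1 when 1 library was left out, and the cause was not tested.

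Of 50 genes named by the rule, 43 kept their call under each of 12 alternatives, the exceptions including Sostdc1, Ccr2, Itgb3, Fgl2, Angptl2 and Satb1. Genes that were not called and changed sign when 1 library was left out were Cd44 (-0.22 to 0.13), Batf (-0.012 to 0.20), Fos (-0.15 to 2.56), Jun (-1.77 to 1.55) and Dusp1 (-0.13 to 1.69). Jun also read -0.024 by DESeq2 and -0.041 with the replicate block. In counts simulated with the same spread for every gene, 81% of 2-fold changes were recovered, a rate that need not hold for these data. Depth limits genes near the floor of 0.303 to 0.382 CPM.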

Other observations

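Noncoding genes were among those called. Of 152 tested lincRNA genes 15 were higher and 10 lower in Tfh cells (16.4% called), of 130 antisense genes 10 were higher and 6 lower (12.3%), and of 10578 protein coding genes 1162 and 1268 (23.0%). Antisense counts may hold reads of the overlapping gene, since strand was not marked.

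The early response genes Fos, Jun and Dusp1 were higher in replicate 1 than in replicate 2 in the Bach2 vector groups too. Fos read 105 and 37.4 CPM in Tfh and 45.8 and 10.8 CPM in non-Tfh libraries there, Jun 67.9 and 24.6 against 68.0 and 30.4 CPM, and Dusp1 70.2 and 26.2 against 51.0 and 22.3 CPM. What the replicate numbers share is not said in the labels.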
